A study of Mus musculus with 4 samples.

Results

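Mitophagy is the autophagy of mitochondria, and the genes described here encode the proteins that mark a mitochondrion and hand it to the autophagosome. The set holds 7 genes, chosen by symbol for that role, with earlier results of these data known. They are the membrane receptors Bnip3, Bnip3l and Fundc1, the cargo adaptors Optn and Tax1bp1, the kinase Pink1 and the inner membrane protein Phb2. All 7 were found among the 10790 genes of the deposited table. RNA came from whole mouse lenses at postnatal day 4, with Tdrd7 -/- mice (Tdrd7 null) set against wild type controls. There were 2 libraries per genotype, each a pool of 15 lenses, so differences between single animals were averaged before measurement. The sources used here do not give strain, sex or the design of the null allele.

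Lens fiber cells destroy their mitochondria, endoplasmic reticulum and nuclei as they mature, which leaves a path for light without scattering organelles. Bnip3l (also called Nix) is known from mouse lenses to be needed for that removal of mitochondria. Mitophagy runs by several routes. Receptors such as BNIP3, BNIP3L and FUNDC1 sit in the outer membrane and bind ATG8 proteins on the forming autophagosome directly. In the other well known route, studied mostly in human cells, PINK1 builds up on damaged mitochondria, phosphorylates ubiquitin and activates the ubiquitin ligase parkin, and adaptors such as OPTN and TAX1BP1 then join the ubiquitin coat to ATG8 proteins. TDRD7 is a Tudor-domain protein of RNA granules, and its loss causes cataract.

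The start regions of Bnip3, Tax1bp1 and Pink1 are shown because these genes passed the test in opposite directions and because Bnip3 is a known target of the hypoxia factor HIF-1. That factor binds a core of ACGTG or GCGTG, which was searched on both strands. The sequences lie upstream of the annotated gene in GRCm38.p6, from RefSeq, and run 5′ to 3′ on the gene's strand. Capitals mark ACGTG or its reverse complement CACGT.
Bnip3, chr7:138909520-138909756, minus strand: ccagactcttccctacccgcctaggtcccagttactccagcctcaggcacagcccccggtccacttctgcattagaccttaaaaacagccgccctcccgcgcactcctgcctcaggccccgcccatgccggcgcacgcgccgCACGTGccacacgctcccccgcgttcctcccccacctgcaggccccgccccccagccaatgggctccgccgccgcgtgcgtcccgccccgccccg
Tax1bp1, chr6:52713479-52713728, plus strand: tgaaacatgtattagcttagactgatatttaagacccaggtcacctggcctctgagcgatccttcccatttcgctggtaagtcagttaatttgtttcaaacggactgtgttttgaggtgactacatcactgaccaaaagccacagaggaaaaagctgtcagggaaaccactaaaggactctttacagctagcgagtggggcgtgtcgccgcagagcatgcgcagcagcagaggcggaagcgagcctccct
Pink1, chr4:138326308-138326546, minus strand: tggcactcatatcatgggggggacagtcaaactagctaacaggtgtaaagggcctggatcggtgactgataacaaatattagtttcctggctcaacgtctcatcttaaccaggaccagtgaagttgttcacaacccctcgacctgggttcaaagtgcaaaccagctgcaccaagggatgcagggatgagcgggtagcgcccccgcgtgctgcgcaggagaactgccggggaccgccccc

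The Bnip3 window held ACGTG in 2 matches that overlap as the palindrome CACGTG, and GCGTG in 3 matches. Tax1bp1 and Pink1 each held 1 match to GCGTG and 0 to ACGTG. Over all 32851 start regions of the table, 16.6% held ACGTG, 28.2% held GCGTG and 6.02% held CACGTG within 250 bases upstream. A window of this kind was used for 5 of the 7 genes, and of the 2 not printed Optn held 2 matches to GCGTG and Phb2 1 to ACGTG. Bnip3l and Fundc1 are named only.

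The values are called scaled reads. They are the authors' values and behave as read counts that share a single scale factor in each library, uncorrected for length. The libraries held 39080159 and 33920522 reads in Tdrd7 null and 41096488 and 42767535 in control lenses, summed over the listed genes. Tdrd7 itself was at 165 and 96.6 scaled reads in Tdrd7 null libraries, against 1188 and 972 in control libraries. Defining lens markers were high in every library, with Cryaa between 125016 and 141976 scaled reads. Of the 8 erythroid, 10 macrophage and 8 muscle markers, 0 were among the genes analysed here. The 7 endothelial markers tested summed to 21.4 and 26.02 scaled reads in Tdrd7 null libraries, against 25.4 and 18.7 in control libraries. Of them 0 were called by limma and 0 were at an unadjusted p under 0.05. Of 15 fiber markers 0 rose (against 10.1% of all genes) and 2 fell, Hsf4 and Lim2 (13.3%, against 7.88% of all genes). With values as deposited 0 were higher at an unadjusted p under 0.05 in limma either. When the trend with GC content and transcript length was removed (below), limma called 0 of 14 fiber markers, against 3.17% of all genes. In that fit 3 of the 14 were higher and 0 lower at an unadjusted p under 0.05. Of 9 lens epithelium markers 2 rose, Gja1 and Mgarp (22.2%), and 1 fell, Foxe3 (11.1%). Their summed level was 1524 and 1509 scaled reads in Tdrd7 null libraries, against 1320 and 1402 in control libraries. Most of that sum was Mgarp, at 967 and 964 scaled reads in Tdrd7 null libraries, against 800.3 and 849 in control libraries. The list's median log2 fold change was 0.09, and Pax6 (0.01) and Cdh1 (-0.02) did not pass. With the same trend removed limma called 0 of the 9, and 3 were higher and 1 lower at an unadjusted p under 0.05. The part of these markers in the results was not tested. In pooled tissue, fewer cells of a type and less RNA per cell cannot be told apart.

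The 3 receptors of the outer membrane were higher in both Tdrd7 null libraries than in either control library. Bnip3 had 34.6 and 34.2 scaled reads in Tdrd7 null lenses, against 24.0 and 25.4 in control lenses. The groups lay apart, and the gap between them was several times the gap between replicates. Bnip3 averaged 34.4 ± 0.321 in Tdrd7 null and 24.7 ± 1.01 in control lenses (SD, n = 2), which is 39.1% higher. Its log2 fold change was 0.46 (95% interval 0.33 to 0.60, SE 0.0624, limma adjusted p = 0.00106). The gene (ENSMUSG00000078566) spans chr7:138890836-138909519 in GRCm38 and shares 504 of its 2265 exonic nt with the antisense gene Gm45507, so its level is uncertain to that extent in a library without strand.

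Bnip3l, the close relative of Bnip3, was the most abundant of the 7 genes. It had 231 and 230 scaled reads in Tdrd7 null lenses, against 184.02 and 183.95 in control lenses. Replicates of a genotype nearly coincided and the genotypes lay apart. The means were 231 ± 0.609 in Tdrd7 null and 184 ± 0.0534 in control lenses (SD, n = 2), 25.5% higher, with a log2 fold change of 0.33 (95% interval 0.22 to 0.43, limma adjusted p = 0.00199). These values rest on 7629 to 8697 reads per library, where counting alone gives an error of 1.07% to 1.14%. The gene (ENSMUSG00000022051) lies at chr14:66985239-67008877, and 1 annotated pseudogene, Bnip3l-ps, could share reads with it. The ratio of Bnip3l to Bnip3 was 6.68 and 6.75 in Tdrd7 null libraries, against 7.67 and 7.23 in control libraries. The groups lay apart, but the design cannot give less than the p = 0.333 found in a two-sided exact permutation test.

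Fundc1, a receptor known for mitophagy under low oxygen, was the least abundant. It had 11.1 and 10.8 scaled reads in Tdrd7 null lenses, against 9.26 and 9.08 in control lenses. The groups lay apart, at 10.97 ± 0.256 in Tdrd7 null and 9.17 ± 0.127 in control lenses (SD, n = 2). Its log2 fold change of 0.23 (95% interval 0.06 to 0.41) did not pass (limma adjusted p = 0.0578). It was called with a minimum mean of 5 (limma adjusted p = 0.046) and with a robust prior (limma adjusted p = 0.0499), each of which gave 5 calls higher among the 7 genes. Only 383 to 419 reads per library stand behind it, with a counting error of 4.89% to 5.11%. The gene (ENSMUSG00000025040) lies at chrX:17556564-17572325.

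**Figure D1:**
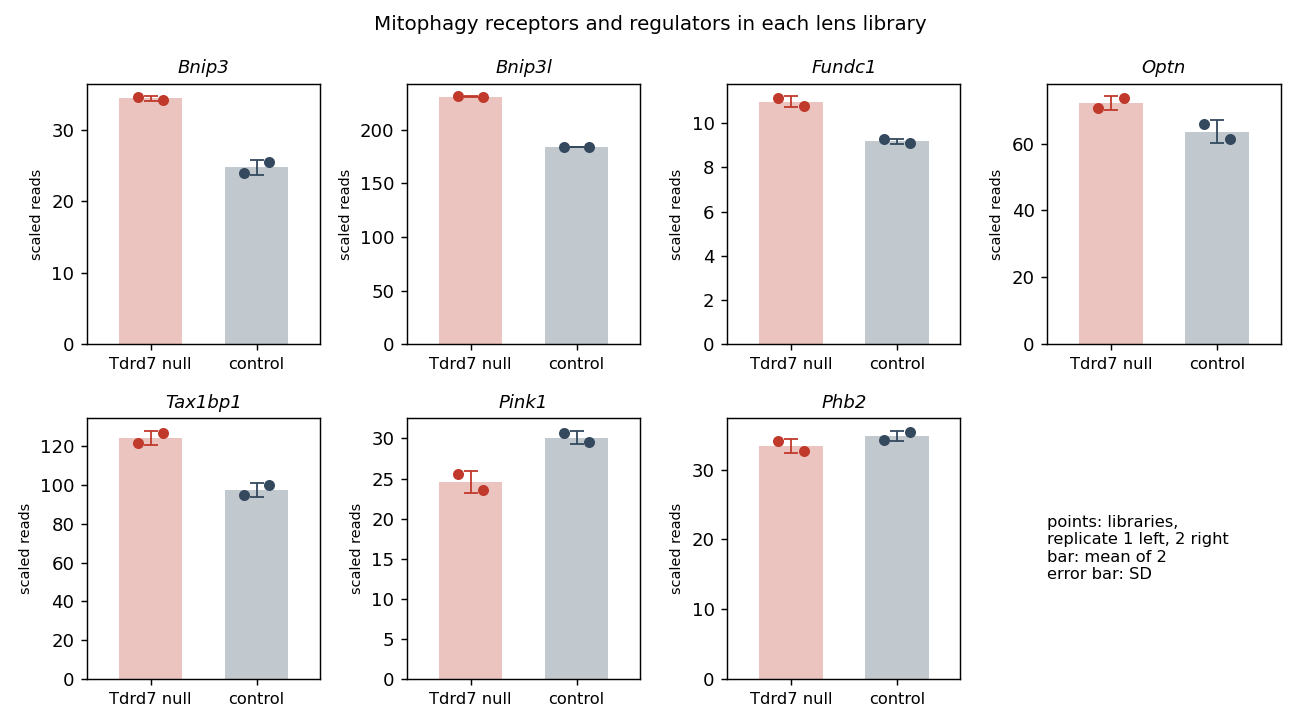
Scaled reads (vertical axes, each from 0) of the 7 genes in Tdrd7 null libraries (red, left) and control libraries (grey-blue, right); points are libraries, bars are means of 2 and error bars are SD. Bnip3, Bnip3l, Fundc1, Optn and Tax1bp1 sit higher in both Tdrd7 null libraries, as Bnip3 at 34.6 and 34.2 against 24.0 and 25.4, and Pink1 and Phb2 sit lower.

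The adaptors rose too. Tax1bp1, which binds ubiquitin and ATG8 proteins, had 122 and 127 scaled reads in Tdrd7 null lenses, against 94.8 and 99.98 in control lenses. The groups lay apart, with means of 124 ± 3.79 in Tdrd7 null and 97.4 ± 3.63 in control lenses (SD, n = 2). It was 27.5% higher, at a log2 fold change of 0.35 (95% interval 0.23 to 0.46, limma adjusted p = 0.00215). Optn encodes optineurin, an adaptor switched on by the kinase TBK1, and had 70.7 and 73.6 scaled reads in Tdrd7 null lenses, against 65.9 and 61.2 in control lenses. The groups lay apart by little more than the gap between the control libraries. Its log2 fold change of 0.18 (95% interval 0.06 to 0.31) passed narrowly (limma adjusted p = 0.0471). That call was lost without Tdrd7 null replicate 2, control replicate 1 or control replicate 2, where the log2 fold change was 0.15, 0.23 and 0.13 (limma adjusted p = 0.198, 0.0811 and 0.296). It was also lost when libraries were scaled on their totals without crystallins, at 0.14 (limma adjusted p = 0.108). Tax1bp1 (ENSMUSG00000004535, chr6:52713729-52766780) shares 160 nt of exon and Optn (ENSMUSG00000026672, chr2:5020642-5064051) 73 nt with genes on the opposite strand.

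Pink1, the kinase that senses damaged mitochondria, went the other way. It had 25.5 and 23.6 scaled reads in Tdrd7 null lenses, against 30.7 and 29.5 in control lenses. Both Tdrd7 null libraries were below both control libraries. Pink1 averaged 24.6 ± 1.39 in Tdrd7 null and 30.1 ± 0.84 in control lenses (SD, n = 2), and it fell by 0.28 on the log2 scale (95% interval -0.43 to -0.14, limma adjusted p = 0.0123). The call was lost without Tdrd7 null replicate 2 (-0.23, limma adjusted p = 0.0759), without control replicate 1 (-0.26, adjusted p = 0.102) and without control replicate 2 (-0.31, adjusted p = 0.0604). The gene (ENSMUSG00000028756) lies at chr4:138313409-138326307, on the chromosome that also carries Tdrd7.

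Phb2, a prohibitin of the inner membrane that is known in human cells to bind LC3 once the outer membrane breaks, did not pass. It had 34.2 and 32.7 scaled reads in Tdrd7 null lenses, against 34.3 and 35.3 in control lenses. The groups nearly touched, at 34.16 in the higher Tdrd7 null library and 34.25 in the lower control library. The log2 fold change of -0.06 (limma adjusted p = 0.551) had a 95% interval of -0.19 to 0.07. The gene (ENSMUSG00000004264) lies at chr6:124712336-124716950 and holds the snoRNA Gm23547 within 155 nt of its exons.

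Of the 7 genes, 4 were called higher and 1 lower. Over all 10696 genes tested, 10.1% were called higher and 7.88% lower, 18.0% together. Those are 1077 and 843 genes, and scaling on totals without crystallins turned that balance round, to 766 higher and 1262 lower, with 3 and 1 of the 7 genes called. The 7 genes had a median log2 fold change of 0.23, against -0.01 for all genes tested. Both Tdrd7 null libraries lay above both control libraries for 5 of the 7 genes and below them for the other 2, where 30.2% and 31.3% of all tested genes did so, 61.5% together. For Bnip3, 0.776% of tested genes (83, itself included) had a log2 fold change at least as high.

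Levels per length of transcript differed widely among the 7 genes. In Tdrd7 null and control lenses Bnip3l stood at 70.9 ± 0.187 and 56.5 ± 0.0164 scaled reads per kb of its longest transcript (SD, n = 2). Tax1bp1 (29.2 ± 0.892 in Tdrd7 null, 22.9 ± 0.854 in control) and Optn (27.6 ± 0.783 in Tdrd7 null, 24.3 ± 1.28 in control) came next, with libraries of the 2 genes apart by little in Tdrd7 null lenses and overlapping in control lenses. Bnip3 was at 19.6 ± 0.183 per kb in Tdrd7 null lenses, above Phb2 at 14.1 ± 0.428. In control lenses Bnip3 and Phb2 overlapped, at 14.1 ± 0.574 and 14.7 ± 0.323. Pink1 (10.3 ± 0.587 in Tdrd7 null, 12.7 ± 0.354 in control) and Fundc1 (5.53 ± 0.129 in Tdrd7 null, 4.63 ± 0.0642 in control) were lowest per kb.

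**Figure D2:**
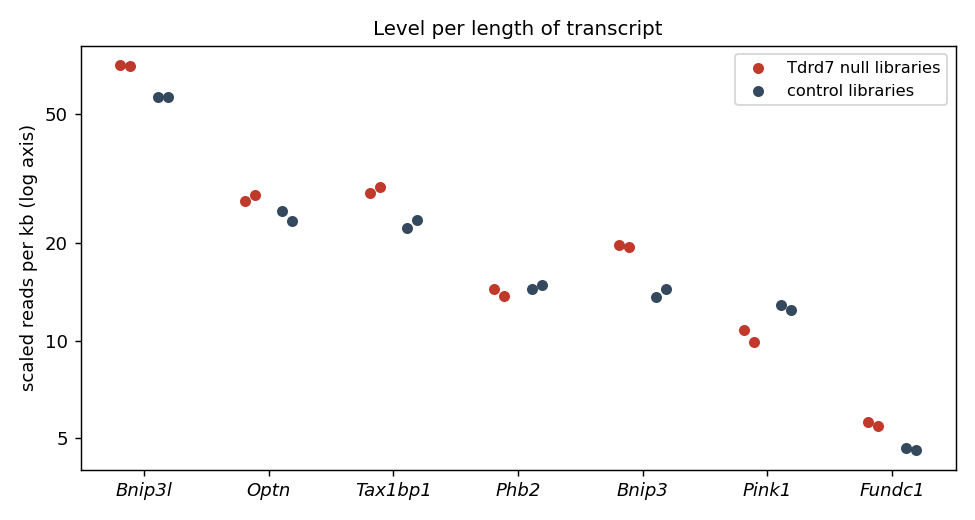
Scaled reads per kb of the longest transcript (log axis) for the 7 genes, ordered by control level, with 2 Tdrd7 null libraries (red) left of 2 control libraries (grey-blue). Bnip3l stands highest, near 70.9 in Tdrd7 null and 56.5 in control lenses, and Fundc1 lowest, at 5.53 and 4.63.

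The direction of the 7 differences ran with base composition, as did that of the whole table. Over the tested genes, the log2 fold change and the GC content of the longest transcript had a Pearson correlation of -0.594, in which genes are not independent replicates. The genes with higher RNA in Tdrd7 null lenses were AT-rich, with GC contents of 38.8% for Fundc1, 39.6% for Tax1bp1, 41.6% for Bnip3 and 41.9% for Bnip3l, except Optn at 50.7%. Pink1 was GC-rich at 59.0%, and Phb2 stood at 53.4%. The median change on the log2 scale was 0.21 over the 555 tested genes of 36 to 40% GC, 0.15 over the 1619 of 40 to 44%, -0.01 over the 2268 of 48 to 52% and -0.15 over the 1444 of 56 to 60%. Fundc1, at 0.23, therefore lay close to the median of its class. Bnip3, Bnip3l, Tax1bp1 and Optn lay above theirs and Pink1 below its own.

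**Figure D3:**
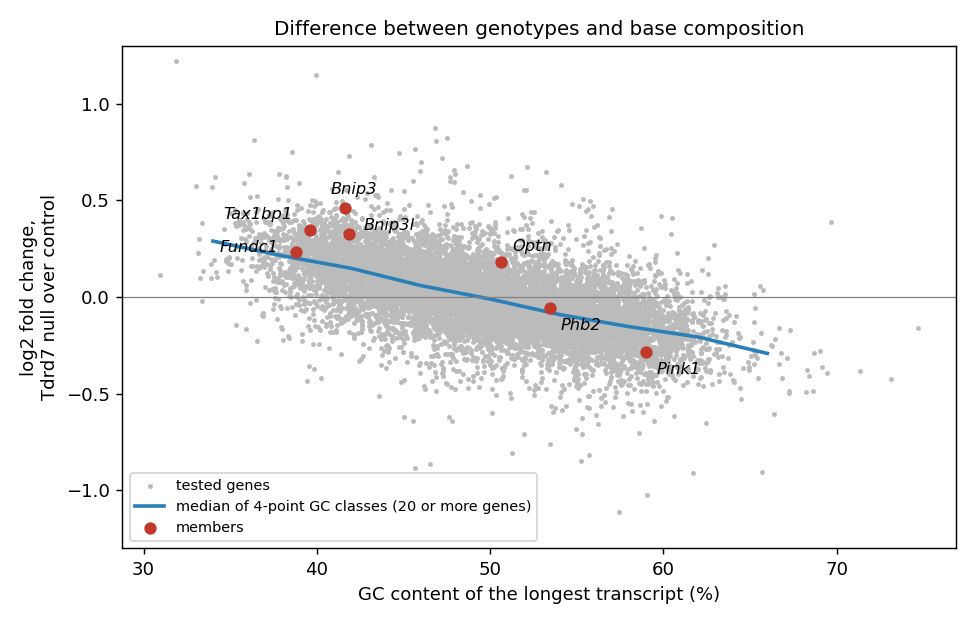
Log2 fold change, Tdrd7 null over control (vertical axis), against GC content of the longest transcript in percent (horizontal axis) for 10656 tested genes (grey), with the 7 genes in red and the median of each 4-point GC class of 20 or more genes in blue; 1 gene beyond 1.3 is not drawn. Bnip3, Bnip3l, Tax1bp1 and Optn lie above the median line and Fundc1 near it.

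When the trend with GC content and transcript length was removed in each library, 1 of the 7 genes, Bnip3, was called. Its log2 fold change was then 0.26 (95% interval 0.13 to 0.38, limma adjusted p = 0.0311), where 1.91% of all genes were called higher and 1.27% lower, 3.17% together. Bnip3l and Tax1bp1, both at 0.16, missed the threshold (adjusted p of 0.065 and 0.101 in limma). Optn kept its size, at 0.19 (95% interval 0.07 to 0.31, limma adjusted p = 0.0816), and its unadjusted p was 0.00452, against 0.00815 before. Pink1 was at -0.12 (limma adjusted p = 0.304). Fundc1 and Phb2 were at -0.02 and 0.00337, with 95% intervals of -0.18 to 0.15 and -0.11 to 0.12.

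**Figure D4:**
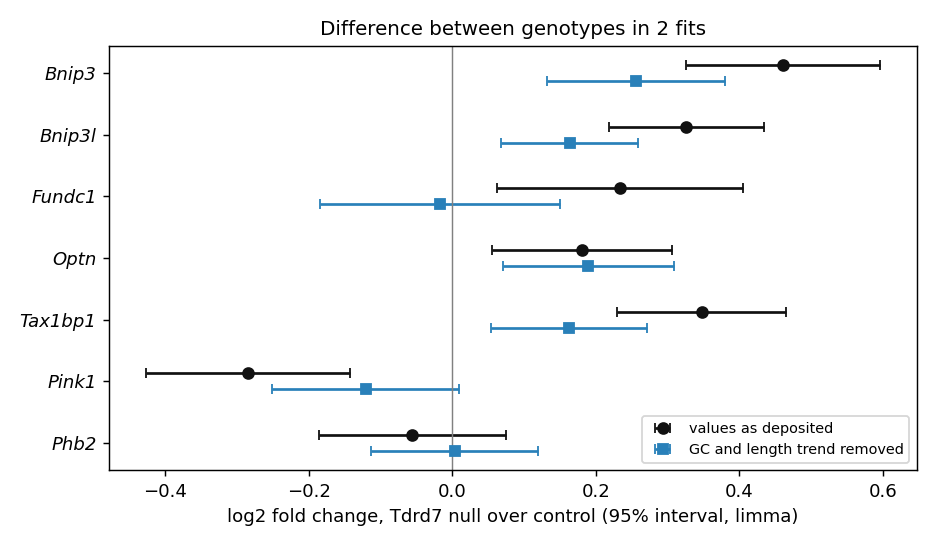
Log2 fold change, Tdrd7 null over control, with limma's 95% interval (horizontal axis) for the 7 genes, in values as deposited (black circles) and with the GC and length trend removed (blue squares). Bnip3 moves to 0.26 from 0.46 when the trend is removed, Optn stays near 0.19, and Fundc1 moves to -0.02.

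In 4 lists of other genes of the pathway, chosen by textbook role, 71 genes were tested. Of these 14 rose (19.7%, against 10.1% of all genes) and 4 fell (5.63%, against 7.88%). The lists were drawn up with earlier results of these data known, so their shares are not independent of them. The 71 genes had a median log2 fold change of 0.05. With the trend removed 1 of the 71 was called higher, the ATG8 gene Gabarapl1, and 0 lower (10 and 2 at an unadjusted p under 0.05 in limma). That is 1.41% called higher, against 1.91% of all genes. The share of all genes at an unadjusted p under 0.05 was not counted, here or for the other lists. Gabarapl1 had 272 and 271 scaled reads in Tdrd7 null lenses, against 204 and 228 in control lenses. Its log2 fold change was 0.33 as deposited (limma adjusted p = 0.004) and 0.36 with the trend removed (adjusted p = 0.00304). Gabarapl1 belongs to the proteins that BNIP3L and other receptors bind on the autophagosome. Its list of 20 ATG8 and initiation genes gave 3 calls higher (15.0%, against 10.1% of all genes) and 1 lower (5.0%, against 7.88%). Besides Gabarapl1, Atg12 (0.24), which takes part in ATG8 conjugation, and Rb1cc1 (0.26), a scaffold of the ULK kinase complex, rose. Atg9a, a membrane protein that feeds autophagosome growth, fell by 0.20 on the log2 scale. Once the trend was removed, Atg12, Rb1cc1 and Atg9a were at 0.15, 0.10 and -0.05. All missed the threshold (adjusted p of 0.119, 0.428 and 0.669 in limma).

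Among 19 other receptors and their regulators, 4 rose (21.1%, against 10.1% of all genes) and 2 fell (10.5%, against 7.88%). With the trend removed limma called 0 of the 19, against 3.17% of all genes, and 3 were higher and 1 lower at an unadjusted p under 0.05. Fundc2, the paralog of Fundc1, had 51.1 and 47.4 scaled reads in Tdrd7 null lenses, against 37.3 and 38.2 in control lenses, a log2 fold change of 0.37 (limma adjusted p = 0.00242). Its GC content was 35.8%, and with the trend removed it was at 0.09 and did not pass (limma adjusted p = 0.453). The autophagy adaptor Nbr1 (0.18), the GTPase Rheb (0.26) and March5 (0.18), a ubiquitin ligase of the outer membrane, rose. Fkbp8 (-0.20), an outer membrane receptor, and Pgam5 (-0.31), the phosphatase that in human cells activates FUNDC1, fell. Pgam5 kept its size with the trend removed, at -0.33 (limma adjusted p = 0.0795).

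In the PINK1 and parkin list, 4 of 24 genes rose (16.7%, against 10.1% of all genes) and 1 fell (4.17%, against 7.88%). Tomm7, a subunit of the outer membrane import pore that in human cells holds PINK1 there, had 30.7 and 35.7 scaled reads in Tdrd7 null lenses, against 21.8 and 26.2 in control lenses. Its replicates differed more than those of the 7 genes relative to their level, and the groups still lay apart, with a log2 fold change of 0.45 (limma adjusted p = 0.0057). Tomm22 (0.31), another import subunit, Vdac3 (0.28), an outer membrane channel, and Tbc1d15 (0.35), a Rab GTPase activating protein, rose as well. Usp30, the deubiquitinase that opposes parkin, fell by 0.26 on the log2 scale, with 12.4 ± 0.556 scaled reads in Tdrd7 null and 15.03 ± 0.715 in control lenses (SD, n = 2). None of these 5 passed with the trend removed, where the list gave 0 calls (3 genes higher and 0 lower at an unadjusted p under 0.05) and limma adjusted p for them ran from 0.097 for Tomm7 to 0.474 for Vdac3.

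Of 11 fission and fusion genes, 3 rose (27.3%, against 10.1% of all genes) and 0 fell (1 lower at an unadjusted p under 0.05 in limma). They were the inner membrane protease Yme1l1 (0.36), Mtfr1 (0.24) and Dnm1l (0.18), which encodes the GTPase that divides mitochondria. With the trend removed they were at 0.15, 0.12 and 0.01 and 0 of the 11 passed in limma, with 2 higher and 0 lower at an unadjusted p under 0.05.

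**Figure D5:**
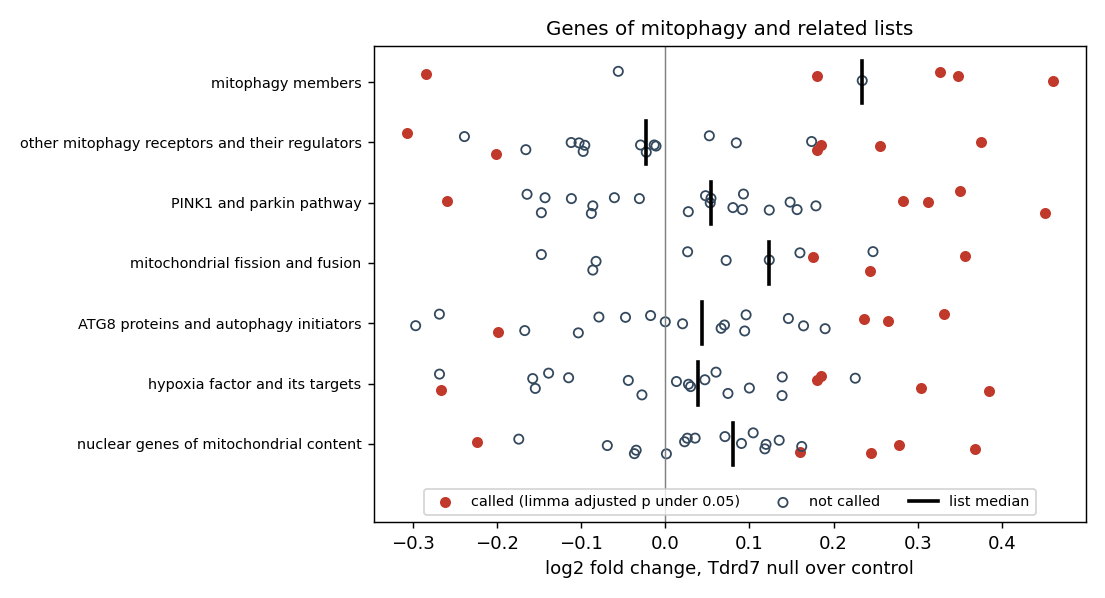
Log2 fold change, Tdrd7 null over control (horizontal axis), of each tested gene in 7 lists; filled points were called by limma, open points were not, and black bars are list medians. The median of the 7 mitophagy genes is 0.23, against 0.05 in the PINK1 and parkin list and 0.04 in the ATG8 and hypoxia lists.

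Genes of the hypoxia response were set beside Bnip3 because HIF-1 is known to drive it. Of 22 such genes other than Bnip3, 4 rose (18.2%, against 10.1% of all genes) and 1 fell (4.55%, against 7.88%). P4ha1, a collagen prolyl hydroxylase subunit, had 171 and 185 scaled reads in Tdrd7 null lenses, against 129.8 and 143 in control lenses (log2 fold change 0.38, limma adjusted p = 0.00218). Pdk1, a kinase that keeps pyruvate out of mitochondria, rose by 0.30, Vegfa by 0.19 and Ldha by 0.18. The glucose transporter Slc2a1 fell by 0.27 on the log2 scale. The factor itself, Hif1a, was chosen after its values were seen; it had 132 and 107 scaled reads in Tdrd7 null lenses, against 117 and 125 in control lenses, with overlapping groups (limma adjusted p = 0.845). With the trend removed 5 of the 22 were called higher by limma and 0 lower (9 and 1 at an unadjusted p under 0.05), which is 22.7%, where 1.91% of all genes were called higher. They were P4ha1 (0.32), Pdk1 (0.27), Vegfa (0.22) and also Aldoa (0.24) and Egln1 (0.24), the last 2 chosen after their values were seen. Slc2a1 was then at -0.18 (limma adjusted p = 0.052). The list was drawn up with earlier results of these data known, so its shares are not independent of them. Whether HIF-1 has a part in the difference of Bnip3 was not tested.

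The genes whose values over the 4 libraries were most like those of Bnip3, by Euclidean distance of mean-centred log2 values among 10696 tested genes, were Hat1 (distance 0.0241), Tbc1d8b (0.0335), Fra10ac1 (0.0379), Etfa (0.0445) and Dynlt3 (0.0561). Etfa encodes a mitochondrial electron carrier of fatty acid oxidation and had 47.9 and 47.7 scaled reads in Tdrd7 null lenses, against 34.3 and 34.8 in control lenses. Nearest to Bnip3l were Cald1 (0.00351), Zeb1 (0.00937), Htatsf1 (0.0173), Plag1 (0.0219) and Btbd1 (0.0224). These distances rest on 4 libraries and describe them only.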

How the data were processed

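RNA of 2 Tdrd7 null and 2 control lens pools was sequenced. Per the series' design text, RNA depleted of small molecules was purified on oligo-dT beads and made into libraries with the TruSeq version 2 kit, which does not mark strand. Per the submitters' processing notes, Trimmomatic, TopHat2 2.0.9, Cufflinks and Cuffnorm were used with mm10 (GRCm38). Counter and scaling step: not given in the sources used here.

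Values of the deposited signal lay within 0.001 of whole multiples of 1 step per library (0.0266 and 0.0282 in Tdrd7 null, 0.0241 and 0.0237 in control) for all but at most 1 gene a library, so they behave as scaled read counts. Each listed gene reached at least 1.02 in some library. Intervals from reads cover counting error only. Symbols of 19 genes that read as dates were renamed by gene ID.

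The log2(scaled reads + 1) of 10696 genes whose mean reached 1 was tested with limma 3.58.1 (R 4.3.3; intensity trend, two-sided, Benjamini-Hochberg over all genes, called under 0.05). Fold changes on that scale understate low genes. Labels call the libraries replicates of pooled lenses, so p-values concern the spread between pools. That spread rests on 2 residual degrees of freedom of the gene itself and 11.1 of a prior from genes of similar level. It is therefore mostly borrowed from other genes. Exact tests used SciPy 1.17.1. The longest GENCODE M21 transcript gave GC content and length of 10750 genes. The trend was removed per library with natural splines of 5 degrees of freedom each. The fit was run on simulated counts of a fixed spread, with or without a straight-line GC trend. Those counts cannot show how it behaves on these libraries.

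Alternatives were pseudocounts, filters, scalings, priors, replicate blocks and leaving out each library. The 7 genes, the lists, the trend removal and the naming rule (called list genes, at most 6 by smallest p) were chosen with earlier results of these data known. Planned count models were not run.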

Additional observations from a re-analysis of the deposited data

How the results depend on the processing

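The 7 genes gave 4 calls higher and 1 lower, and all tested genes gave 1077 and 843. Without the intensity trend of the prior, 0 and 0 of the 7 genes, 0 and 0 of the 71 other mitophagy genes (14 and 4 before) and 9 and 7 of all genes were called by limma (5 and 1 of 7 and 16 and 8 of 71 at an unadjusted p under 0.05), and Bnip3 narrowly missed the threshold (limma adjusted p = 0.051). With the GC and length trend removed these limma counts were 1 and 0, 1 and 0, and 203 and 135 (4 and 0 of 7 and 10 and 2 of 71 at an unadjusted p under 0.05). The log2 fold change of Fundc1 then turned to -0.017 and that of Phb2 to 0.00337, also with the replicate block in the same fit, and the cause was not tested. Scaling on totals without crystallins gave 9 and 8 calls among the 71 genes and 766 and 1262 over all genes. The share of all tested genes at an unadjusted p under 0.05 was not counted, so the unadjusted counts cannot show whether there was an excess. With values as deposited that share was at least the 18.0% called after adjustment.

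Leaving out 1 library gave 3 to 4 calls higher and 0 to 1 lower among the 7 genes, 3 to 13 and 0 to 2 among the 71, and 293 to 1166 and 138 to 1030 over all genes. The counts over all genes were lowest without control replicate 1 and also lower by over 1.5 times without control replicate 2 or Tdrd7 null replicate 2. In these fits the lone library was assumed to vary like the other genotype. Bnip3, Bnip3l and Tax1bp1 were called in each of these 4 fits, and Phb2 was called in 0 of the 16 alternatives run. In the alternatives that kept all 4 libraries, limma adjusted p reached 0.051 for Bnip3, 0.0768 for Bnip3l and 0.159 for Optn. The lowest values were 2.93e-11, 3.27e-09 and 0.00498, all from crossed replicate numbers (below), chosen after seeing the data. That fit left 1 residual degree of freedom and took each gene's variance wholly from other genes, so its small values are no measure of certainty.

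Across genes, the deviations of same-numbered libraries had a correlation of -0.151. That value rests on a single difference between replicates per genotype, so it cannot show whether the libraries were paired. The replicate block gave 4 and 1 calls among the 7 genes and 1144 and 973 over all genes. With the trend removed as well, the block gave 1 and 0 of 7, 2 and 0 of 71, and 236 and 186 overall. Crossed numbers, chosen after seeing the data, gave 5 and 1 of 7, 22 and 8 of 71, and 1628 and 1408 overall. TMM scaling, edgeR and DESeq2 were planned and not run. Counting error was largest for Fundc1 among the 7 genes, at 383 to 419 reads.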

Other observations

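Of 10 transcription factors that drive autophagy or mitochondrial genes, 1 rose and 1 fell, shares near the 10.1% and 7.88% of all tested genes. Tfeb, a master regulator of lysosome and autophagy genes, had 5.48 and 4.62 scaled reads in Tdrd7 null lenses, against 7.43 and 6.88 in control lenses, a log2 fold change of -0.43 (limma adjusted p = 0.0129). Gabpa, a factor of nuclear genes for mitochondria, had 53.6 and 50.7 scaled reads in Tdrd7 null lenses, against 43.6 and 42.8 in control lenses (0.27, limma adjusted p = 0.00902). Their transcripts had GC contents of 63.2% and 41.4%, and once the trend with GC was taken out they stood at -0.20 and 0.13, short of the threshold (adjusted p of 0.289 and 0.242 in limma).

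Nuclear genes that reflect the amount of mitochondria gave 4 calls higher (against 10.1% of all genes) and 1 lower (against 7.88%) of 20, and 0 in limma with the GC trend removed (2 higher and 3 lower at an unadjusted p under 0.05). The cristae protein gene Immt (0.25), Timm23 (0.37), Cycs (0.28) and Hspd1 (0.16) rose, and Cox4i1 fell by 0.22 on the log2 scale. The 12 mitochondrially encoded genes summed to 18386 and 19035 scaled reads in Tdrd7 null libraries, against 16103 and 14623 in control libraries. Of them 9 were called higher as deposited (75.0%, against 10.1% of all genes) and 1 with the trend removed (8.33%, against 1.91%). They are AT-rich, with a median GC content of 36.5%. Their median log2 fold change was 0.31 as deposited and -0.03 with the trend removed.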
